A study of Mus musculus with 58 samples.

Results

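Microglia of wild-type mice that had received an antisense oligonucleotide (ASO) against Mitf were compared directly with microglia of wild-type mice that had received an ASO against Tfeb. The comparison holds 8 of the 58 polyA RNA-seq libraries of the study, 4 for each ASO, and it uses no control library. The wild-type ASO experiment has 20 libraries in all: the Mitf ASO, the Tfeb ASO, a Tfe3 ASO, an ASO labelled ntc and PBS, with 4 libraries each. All 20 are labelled wild type, from C57BL/6 mice. Each mouse had 1 injection into the brain ventricles 14 days before its forebrain was taken, and live cells were sorted by flow cytometry as CD11b+, CD45low and CX3CR1+. The titles number the libraries of each treatment from 1 to 4 under the word grp, and this number was kept as a block, so that each Mitf ASO library is read against the Tfeb ASO library of its own grp. The labels give no age or sex for these mice and no ASO dose or sequence, and do not say that the 4 libraries of a group came from separate animals. The p-values of this paired comparison rest on how much the differences within a grp vary from pair to pair. Shifts shared by both libraries of a grp do not enter that spread, and the spread may therefore be technical.

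MITF, TFEB and TFE3 are related basic helix-loop-helix leucine zipper transcription factors. When lysosomes are stressed or nutrients are short they move from the cytoplasm to the nucleus, bind E-box elements with the core CACGTG or related sequences, and raise genes of lysosomes and autophagy. MITF is best known from pigment cells and osteoclasts, TFEB from the control of lysosome number. In lysosomal storage disease, and around amyloid plaques, microglia take on a state known as disease-associated microglia, in which lysosomal genes and surface genes such as Itgax and Clec7a are high and resting-state genes are low.

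Members of the lysosomal lists described below carried such elements in their promoters, and 5 are shown because their transcripts were higher with the Mitf ASO than with the Tfeb ASO. They were chosen after the values were seen. The sequences are RefSeq promoters of GRCm38.p6, 250 bases before to 50 bases after the annotated start, printed 5′ to 3′ along the gene's strand. Capitals mark CACGTG, which is its own reverse complement, and TCATGTGA on either strand.
Ctsd, chr7:142387778-142388077, minus strand: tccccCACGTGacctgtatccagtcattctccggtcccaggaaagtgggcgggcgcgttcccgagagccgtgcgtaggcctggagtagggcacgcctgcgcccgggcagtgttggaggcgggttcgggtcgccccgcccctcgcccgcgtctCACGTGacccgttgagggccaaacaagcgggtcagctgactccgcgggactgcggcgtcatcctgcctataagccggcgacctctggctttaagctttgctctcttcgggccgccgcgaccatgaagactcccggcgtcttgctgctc
Ctsa, chr2:164833523-164833822, plus strand: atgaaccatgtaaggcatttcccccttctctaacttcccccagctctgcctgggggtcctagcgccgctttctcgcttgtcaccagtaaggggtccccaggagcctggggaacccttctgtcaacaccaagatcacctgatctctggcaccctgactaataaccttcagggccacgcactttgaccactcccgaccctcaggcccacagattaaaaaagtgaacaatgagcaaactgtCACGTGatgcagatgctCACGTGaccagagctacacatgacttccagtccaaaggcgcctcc
Lamp1, chr8:13158911-13159210, plus strand: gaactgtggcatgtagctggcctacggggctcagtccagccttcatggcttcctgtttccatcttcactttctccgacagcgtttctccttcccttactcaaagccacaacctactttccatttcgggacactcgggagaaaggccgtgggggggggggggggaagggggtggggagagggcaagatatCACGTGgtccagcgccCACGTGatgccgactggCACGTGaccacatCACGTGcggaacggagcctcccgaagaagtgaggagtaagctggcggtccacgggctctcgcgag
Tpp1, chr7:105752186-105752485, minus strand: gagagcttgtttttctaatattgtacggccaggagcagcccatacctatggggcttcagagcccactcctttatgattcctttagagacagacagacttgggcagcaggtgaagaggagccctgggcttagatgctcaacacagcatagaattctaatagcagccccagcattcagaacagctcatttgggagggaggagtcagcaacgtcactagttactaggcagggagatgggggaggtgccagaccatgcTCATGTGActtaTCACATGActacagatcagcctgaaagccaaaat
Atp6v1a, chr16:44139210-44139509, minus strand: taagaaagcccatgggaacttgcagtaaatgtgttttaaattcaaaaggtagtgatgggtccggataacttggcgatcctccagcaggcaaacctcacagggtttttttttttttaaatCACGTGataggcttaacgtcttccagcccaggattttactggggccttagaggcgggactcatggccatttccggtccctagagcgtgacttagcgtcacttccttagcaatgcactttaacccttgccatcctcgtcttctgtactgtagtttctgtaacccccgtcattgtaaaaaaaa
The Ctsd promoter holds 2 CACGTG, starting 245 and 98 bases before the start site (-245 and -98), and the one at -98 lies in the longer palindrome TCACGTGA. The Ctsa promoter shown is the second of 2 in the table, with 2 CACGTG starting at -12 and 6, each within TCACGTGA, and the other Ctsa promoter holds none of these motifs. The Lamp1 promoter holds 4 CACGTG between -61 and -15. Tpp1 has no CACGTG and 2 TCATGTGA, starting at 5 and 17. The Atp6v1a promoter holds 1 CACGTG at -131, also within TCACGTGA. Of the 26 lysosomal genes called higher with the Mitf ASO, 20 have a promoter in the table. CACGTG was found in 7 of these 20 (35%), against 12.2% of the 8126 tested genes with a promoter, 8.09% of all 27025 genes in the table, 16.6% of all genes higher with the Mitf ASO and 8.19% of those lower. TCACGTGA, each copy of which also counts as a CACGTG, was in 20% of the 20, 2.39% of the tested genes, 1.12% of all genes in the table, 3.74% of the higher genes and 0.431% of the lower ones. TCATGTGA was in 20% of the 20, 0.898% of the tested genes, 1.15% of all genes in the table, 5.35% of the higher genes and 0.862% of the lower ones. CACGTG also lay in the promoters of 33.3% of all 33 lysosomal hydrolase genes with a promoter, whether or not their transcripts differed between the ASOs. These are matches of letters in this window, counted without a test.

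Each target was lowest under its own ASO. Mitf (GRCm38 chr6:97807052-98021349, plus strand) stood at 1.01, 1.58, 1.58 and 2.15 CPM (counts scaled to the library total) in the Mitf ASO libraries of grp 1 to 4, and at 38.8, 35.1, 41.8 and 46.1 CPM in the Tfeb ASO libraries. The ntc libraries had 43.7 ± 6.92 CPM (SD, n = 4), close to the Tfeb ASO libraries. Mitf was lower with the Mitf ASO than with the Tfeb ASO, at -4.69 ± 0.13 on the log2 scale (SE; edgeR's adjusted p = 3.34e-08). Tfeb (chr17:47737030-47792419, plus strand) stood at 58.9, 58, 48.4 and 54.9 CPM with the Mitf ASO and at 6.91, 6.3, 4.59 and 5.4 CPM with the Tfeb ASO. Its ntc libraries had 54.9 ± 2.33 CPM (SD, n = 4), and the difference between the ASOs was 3.25 ± 0.08 on the log2 scale (adjusted p = 3.26e-08). Tfe3, the third of these factors, had 189 to 206 CPM with the Mitf ASO and 199 to 231 CPM with the Tfeb ASO, a log2 difference of -0.13 that did not pass the test (adjusted p = 0.13).

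**Figure D1:**
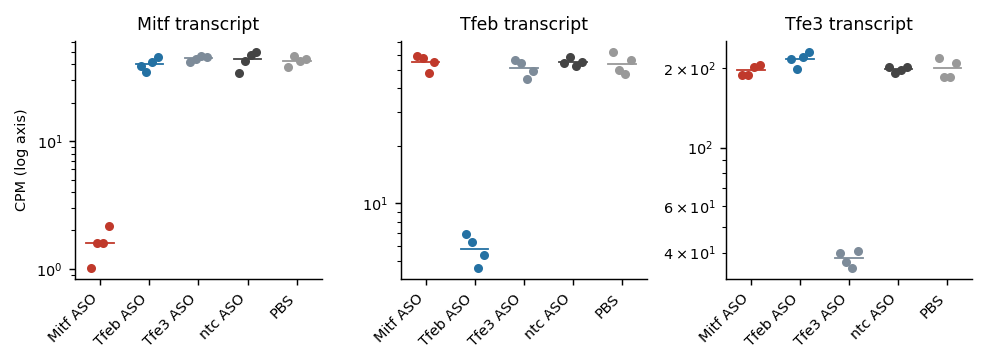
Level of the Mitf, Tfeb and Tfe3 transcripts in each of the 20 wild-type ASO libraries (CPM, log axis; points are libraries, bars are means of 4). Mitf is at 1.01 to 2.15 CPM only in the Mitf ASO libraries and Tfeb at 4.59 to 6.91 CPM only in the Tfeb ASO libraries.

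Beyond the targets, the microglia of the 2 treatments differed in many transcripts, mostly by a modest amount. Of 10276 genes tested, 544 passed an adjusted p of 0.05 (5.29%). With the Mitf ASO, 235 were higher (2.29% of genes tested) and 309 lower (3.01%) than with the Tfeb ASO. The median log2 difference was 0.33 among the higher and -0.35 among the lower genes. A fold of at least 2 was reached by 13 higher and 6 lower genes, and 1.5-fold by 44 and 41. All 4 grp pairs moved the same way in 234 of the 235 and 304 of the 309, against 2996 of the 10276 genes tested. A paired test on the same libraries picked the called genes, so this agreement is no separate support. The 2 groups of 4 CPM values did not overlap for 91 of the higher genes (38.7%) and 60 of the lower ones (19.4%), against 4.07% of all genes tested. These values are from the same libraries, so this is no separate support either. In sorted bulk RNA, fewer cells of a kind and less RNA per cell cannot be told apart.

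The number of calls rests on the pairing by grp. Without the block 6 genes were called, 4 higher and 2 lower, and 608 had an unadjusted p under 0.05. Leaving out a library leaves 3 complete pairs: 530 or 531 genes were called without the Mitf or the Tfeb ASO library of grp 1, 81 without either library of grp 2, 144 or 149 without those of grp 3, and 191 or 204 without those of grp 4. Both fits of a grp leave the same 3 pairs, so the 8 fits make about 1 separate check per grp. A gene is called robust below where it passed in all 8 of these fits. That held for 47 of the higher genes and 23 of the lower genes. The word refers to these 8 fits alone: of the 70 genes, 62 were also called with all 20 libraries in 1 model, 56 on the authors' batch-corrected signal, 69 by DESeq2 and 6 without the block. Of those named below, Lyz2, Hif1a and Rreb1 were not called in the 20-library model, and Tpp1, Galc, Phgdh and Rreb1 not on the batch-corrected signal.

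**Figure D2:**
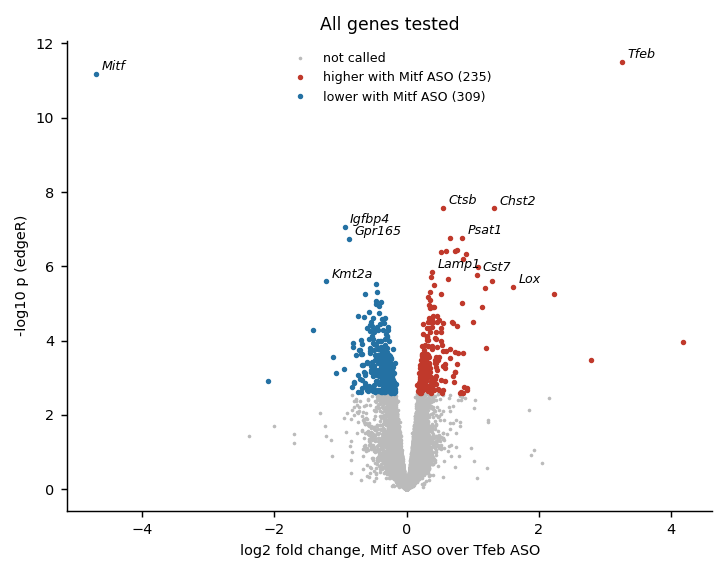
Log2 fold change of Mitf ASO over Tfeb ASO (x) against -log10 of the unadjusted edgeR p (y) for the 10276 genes tested. Coloured points passed an adjusted p of 0.05, 235 higher (red) and 309 lower (blue) with the Mitf ASO, and Mitf and Tfeb lie far from the rest.

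Some lysosomal genes were higher with the Mitf ASO. Across the lists of the proton pump, hydrolases and membrane proteins, 93 of 100 genes were measured, 26 were called higher and 0 lower, and the median log2 difference was 0.154, against -0.002 over all genes. The other 67 did not pass, and 16 of the 93 lay below 0. In each list the share called higher exceeded the 2.29% of all genes tested.

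Among the hydrolases, 13 of 43 were called higher and the median was 0.148. Ctsb, the cysteine protease cathepsin B, had the lowest p of all genes other than the targets. It stood at 6560, 5640, 5890 and 5800 CPM with the Mitf ASO and at 4530, 3690, 4180 and 4110 CPM with the Tfeb ASO (grp 1 to 4). The groups did not overlap, the difference was 0.55 ± 0.04 (log2, SE; adjusted p = 7.09e-05), and the ntc libraries were lower than both, at 3390 ± 293 CPM (SD, n = 4). Ctsd, the aspartic protease cathepsin D, had 20300 to 22500 CPM against 15700 to 18500 CPM (log2 0.33 ± 0.04, adjusted p = 0.00216). Ctsa, a carboxypeptidase that protects other lysosomal enzymes, had 1800 to 2080 CPM against 1460 to 1610 CPM (log2 0.35 ± 0.04, adjusted p = 0.00186). Tpp1, a peptidase whose loss causes a neuronal ceroid lipofuscinosis, had 895 to 1010 CPM against 726 to 830 CPM (log2 0.34 ± 0.04, adjusted p = 0.00313). These 4 were robust and their groups did not overlap. Galc, which breaks down galactosylceramide, and Ctsl, another cysteine protease, were robust too (log2 0.39 and 0.35). Sgsh, the sulfatase lost in the study's disease model, was at a log2 difference of -0.17 that did not pass (adjusted p = 0.1). Without 1 library, 6 to 14 hydrolases were called, with 6 when a library of grp 2 was left out.

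Of the membrane and transport genes, 7 of 34 were called higher, with a median of 0.133. Cd63, a tetraspanin of late endosomes and lysosomes, stood at 364, 323, 322 and 255 CPM with the Mitf ASO and at 243, 173, 172 and 166 CPM with the Tfeb ASO. Every Mitf ASO library lay above every Tfeb ASO library, with a log2 difference of 0.76 ± 0.07 (SE, adjusted p = 0.000356). Lamp1, the abundant glycoprotein of the lysosomal membrane, stood at 1950, 1820, 1880 and 1910 CPM against 1500, 1360, 1500 and 1500 CPM (log2 0.38 ± 0.04, adjusted p = 0.000894). Npc2, which carries cholesterol inside the lysosome, stood at 965, 909, 872 and 796 CPM against 780, 671, 678 and 655 CPM (log2 0.36 ± 0.04, adjusted p = 0.00252). Cd63, Lamp1 and Npc2 were robust. Grn, progranulin, was higher by 0.26 ± 0.04 (log2, SE; adjusted p = 0.00781) but was lost without either library of grp 2. Clcn7 and Lamp2 were called at log2 differences of 0.31 and 0.21 and were lost in 3 and 6 of the 8 fits. In all, 3 members were called without a library of grp 2, 4 or 5 without one of grp 3, and 6 or 7 otherwise.

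The proton pump, which acidifies the lysosome, had calls that depended on single pairs. Of 16 measured V-ATPase genes 6 were called higher and 15 lay above 0, with a median of 0.196. Atp6v0c, a membrane subunit, had 505 to 640 CPM against 400 to 543 CPM (log2 0.33 ± 0.05, adjusted p = 0.012), and Atp6v1a, the catalytic subunit, had 124 to 180 CPM against 99 to 147 CPM (log2 0.34 ± 0.07, adjusted p = 0.0183). The ASO groups overlapped for both genes. None of the 6 was robust: 0 were called without either library of grp 2, 1 without those of grp 3, 2 without those of grp 4, and 5 without those of grp 1.

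Autophagy genes were read in the same way. Of 39 measured, 2 were called higher and 1 lower, against 2.29% and 3.01% of all genes tested, and the median was 0.024. Counts this small do not set the list apart from all genes tested. Whether it differs from the lysosomal lists was not tested. Atg5, needed to extend the autophagosome, and Gabarap, a ubiquitin-like protein of its membrane, were higher (log2 0.28 and 0.23). Rb1cc1, a scaffold of the initiating kinase complex, was lower (log2 -0.33). All 3 calls were lost without any 1 library of grp 2, 3 or 4. Sqstm1, the receptor p62, was at 0.12 and did not pass (adjusted p = 0.186).

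In the list of the factors and their control, 5 of 31 measured genes were called, against 5.29% of all genes tested. The 5 include Mitf and Tfeb, the targets of the ASOs. Lamtor3, a scaffold of the Ragulator complex that anchors mTORC1 at the lysosome, was higher by 0.32 ± 0.07 (log2, SE; adjusted p = 0.0279). Rragc, the GTPase RagC of that site, was higher by 0.23 ± 0.05 (adjusted p = 0.0252). Flcn, folliculin, which acts on the Rag GTPases, was higher by 0.23 ± 0.06 (adjusted p = 0.048). These 3 calls were lost in 6 to 8 of the 8 fits, so 2 or 3 members were called without 1 library. The other 26 did not pass: Fnip2, a partner of folliculin, was at 0.23 (adjusted p = 0.0752), Mcoln1, a lysosomal calcium channel, at 0.16 (0.278), Mtor at -0.21 (0.191) and Sesn2 at -0.23 (0.158). The rest, Fnip1, Rraga, Lamtor1, Lamtor2, Lamtor4, Lamtor5, Rptor, Mlst8, Rheb, Tsc1, Tsc2, Ppp3cb, Ppp3r1, Ywhaz, Gsk3b, Sesn1, Castor1, Depdc5, Nprl2, Nprl3 and Slc38a9, lay between -0.18 and 0.19. Tfec, Rragb and Rragd were not measured here.

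Of the genes of disease-associated microglia, 17 were higher with the Mitf ASO. The list has 42 genes, of which 32 were measured and 0 were called lower, against 2.29% of all genes called higher, and the median log2 difference was 0.342. The list shares members with the lysosomal lists, and of the 26 measured genes outside those, 12 were called higher with a median of 0.327. Without 1 library, 10 to 21 members were called, with 10 when either library of grp 2 was left out. Gpnmb, Lgals3 and Fabp5 were among the 10 members not measured here.

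Itgax, the integrin CD11c, stood at 50.7, 43.3, 53 and 61.9 CPM with the Mitf ASO and at 32.4, 22.5, 28.8 and 29.1 CPM with the Tfeb ASO. The groups did not overlap, and the difference was 0.89 ± 0.08 (log2, SE; adjusted p = 0.00037). Cst7, the protease inhibitor cystatin F, stood at 33.9, 26, 33.4 and 37.5 CPM against 21.1, 11.6, 12.9 and 17.8 CPM (log2 1.07 ± 0.11, adjusted p = 0.00103), again without overlap. Clec7a, the receptor dectin-1, stood at 61.1, 39.2, 29.8 and 40.1 CPM against 38.4, 13.1, 11 and 17.4 CPM (log2 1.19 ± 0.13, adjusted p = 0.00157). Here the Tfeb ASO library of grp 1 lay within the range of the Mitf ASO libraries, although each pair moved the same way. The chemokines Ccl3 and Ccl4 were higher in each pair by 1.08 ± 0.10 and 1.14 ± 0.14 (log2, SE), with overlapping groups, since both were highest in grp 1 under both ASOs. Ccl3 and Ccl4 also belong to the list of genes raised by tissue dissociation, described below. All 5 were robust, and so were Lyz2, lysozyme (log2 0.62), and the cathepsins named above. Axl, a receptor for dying cells, Csf1, a microglial growth factor, and Cd9, a tetraspanin, were called at 0.74, 0.56 and 0.38 but not in every fit. Spp1, osteopontin, had a log2 difference of 2.15 that did not pass (adjusted p = 0.056), Apoe one of 0.33 (adjusted p = 0.153), and Trem2 one of 0.11 (adjusted p = 0.23).

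**Figure D3:**
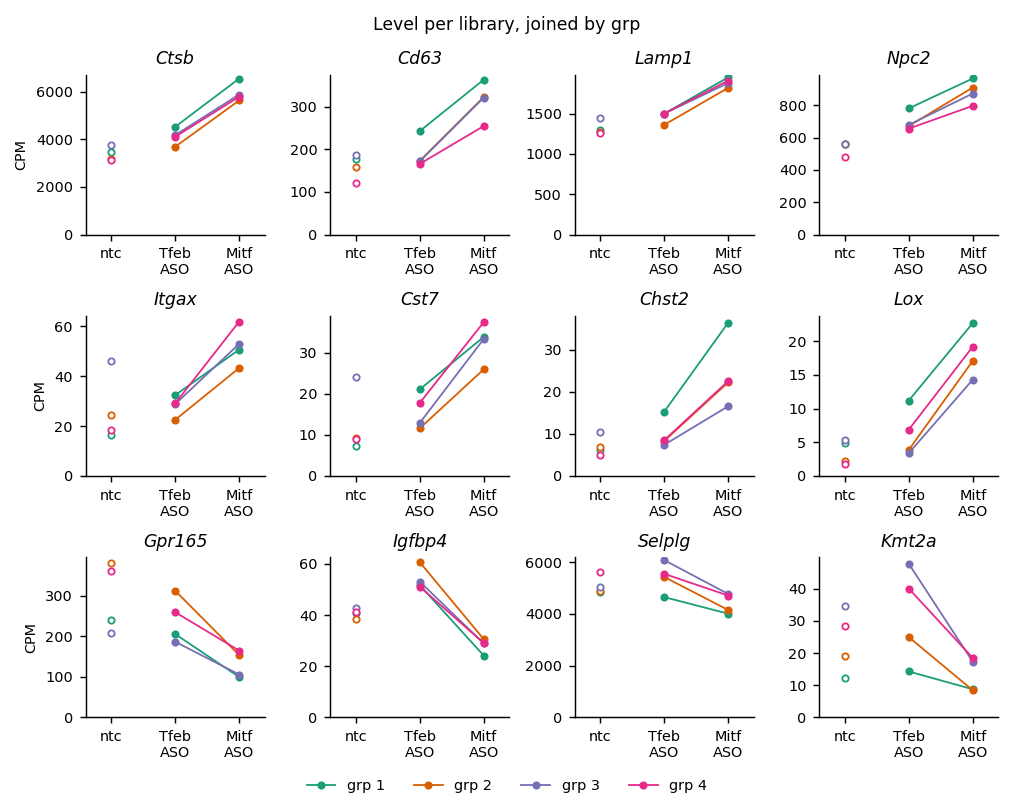
CPM per library for 12 called genes in the ntc (open points), Tfeb ASO and Mitf ASO libraries, with lines joining the Tfeb and Mitf ASO libraries of the same grp. In the 8 genes of the upper rows every line rises, and in Gpr165, Igfbp4, Selplg and Kmt2a every line falls.

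Some genes of resting microglia were lower with the Mitf ASO, most of them by small amounts. Of 38 measured, 11 were called lower and 0 higher, against 3.01% of all genes called lower, and the median was -0.109. The other 27 did not pass, and 8 of the 38 lay above 0. Gpr165, an orphan receptor, stood at 99.7, 154, 106 and 165 CPM with the Mitf ASO and at 206, 313, 187 and 260 CPM with the Tfeb ASO. The groups did not overlap, with a difference of -0.88 ± 0.07 (log2, SE; adjusted p = 0.000236), and the ntc libraries were higher, at 298 ± 85.7 CPM (SD, n = 4). Selplg, the P-selectin ligand, stood at 4010, 4150, 4770 and 4710 CPM against 4650, 5430, 6080 and 5550 CPM (log2 -0.29 ± 0.04, adjusted p = 0.00604); its groups overlapped but every pair was lower. Gpr165 and Selplg were the robust members. The transporters Slco2b1 and Slc2a5, the receptor Csf1r, and Tmem119, a standard microglial marker, were called at -0.26, -0.25, -0.17 and -0.16. Their calls were lost in 2 to 8 of the 8 fits, so 2 members were called without a library of grp 2, 3 without one of grp 3, 4 without one of grp 4 and 6 without one of grp 1. P2ry12, the ADP receptor that marks resting microglia, was at 0.08 and Cx3cr1, used in the sort, at -0.13, and neither passed (adjusted p = 0.341 and 0.062). Of 22 factors that set microglial identity, 4 were called lower and 0 higher (Csf1r -0.17, Klf2 -0.94, Etv5 -0.22 and Sall1 -0.2), 21 lay below 0, and 0 were called without a library of grp 2, 3 or 4.

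Metabolic and stress groups also held calls. Over all genes tested 2.29% were called higher and 3.01% lower, with a median of -0.002. In glycolysis and hypoxia 6 of 22 genes were called higher and 1 lower, with a median of 0.188. Hif1a, the hypoxia-inducible factor, was higher in each pair (426, 295, 210 and 265 CPM against 346, 213, 176 and 213 CPM; log2 0.35 ± 0.05, adjusted p = 0.00497) and was robust, though its groups overlapped. Pkm, Aldoa and Pgam1, enzymes of glycolysis, were higher by 0.27, 0.23 and 0.3, and Hk1, a hexokinase, was lower at -0.3. Only 1 or 2 members were called without a library of grp 2, 3 or 4. Among the genes of cholesterol synthesis and uptake 2 of 25 were called higher, 24 lay above 0 and the median was 0.205. Idi1, an isomerase of the sterol pathway, was higher by 0.66 ± 0.12 (log2, SE; adjusted p = 0.0162) and was lost in 6 of the 8 fits. In lipid efflux 2 of 13 genes were called higher, Npc2 and Soat1, which esterifies cholesterol (log2 0.25). Soat1 was lost in 7 of the 8 fits, in which the list held 1 call. In the list of the Atf4 and unfolded protein responses 2 of 22 were called higher, both enzymes of serine synthesis: Psat1 stood at 158, 96.3, 89.7 and 94 CPM against 79.9, 49.3, 58.6 and 56.5 CPM (log2 0.84 ± 0.07, adjusted p = 0.000236), and Phgdh was higher by 0.31 ± 0.05 (adjusted p = 0.00828). Both were robust.

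**Figure D4:**
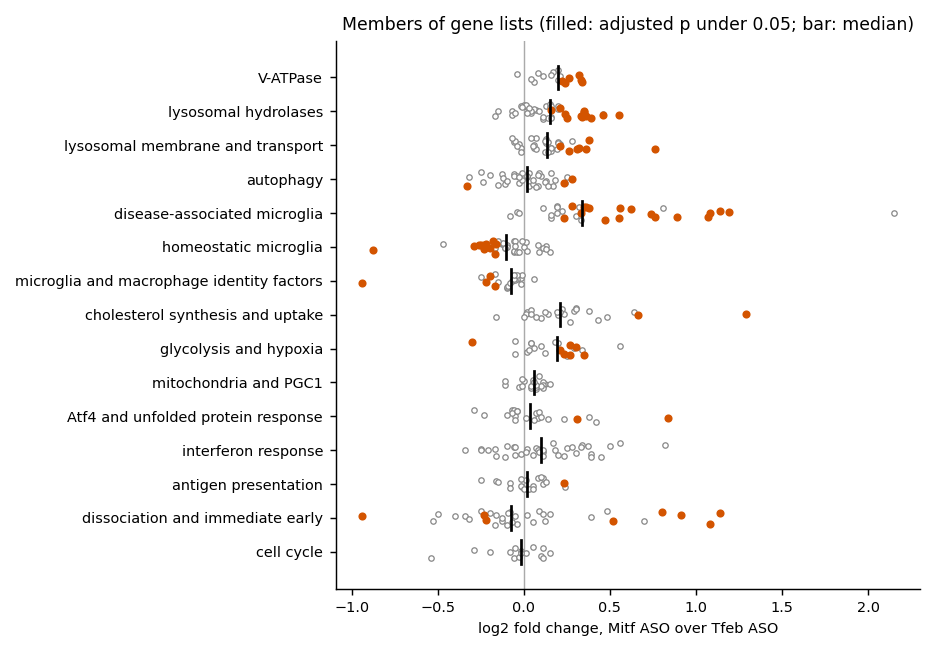
Log2 fold change of Mitf ASO over Tfeb ASO for the measured members of 15 gene lists (points; filled where the adjusted p is under 0.05, black bars are medians). Called members of the lysosomal and disease-associated lists all lie above 0 and those of the homeostatic list below 0.

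No interferon response gene of 38 was called by edgeR with the settings above, where 10 had an unadjusted p under 0.05. Without the filter, or with a filter at a mean of 50 counts, edgeR called 3 higher, with other scaling factors 1 higher, and without a library of grp 1 1 lower, and DESeq2 called 3 higher and 1 lower. Of 21 genes of oxidative metabolism 0 were called by either tool (4 with an unadjusted p under 0.05), and of 15 cell cycle genes 0 by edgeR (1 with an unadjusted p under 0.05) and 1 by DESeq2. The lowest p among the metabolic and cell cycle genes belonged to Uqcrc2 (log2 0.11, adjusted p = 0.188) and Ccnd1 (-0.29, adjusted p = 0.0599). Over all genes tested edgeR called 2.29% higher and 3.01% lower. In antigen presentation 1 of 21 was called, B2m, the light chain of MHC class I (log2 0.23, adjusted p = 0.012, lost in 6 of the 8 fits). Of 24 cytokine genes 3 were called higher, Ccl3, Ccl4 and Il1b (log2 0.8), and Ccl9 was lower at -0.2; Il1b and Ccl9 were lost in all 8 fits. Of 15 clock genes Hlf (-0.55) and Per3 (-0.62) were called lower, and neither was called without a library of grp 2 or 3. Of 30 genes known as MITF targets in pigment cells or osteoclasts 13 were measured, 3 were called higher with the Mitf ASO, against 2.29% of all genes, and 0 lower: Hif1a, Clcn7, a lysosomal chloride transporter, and Rab27a, a GTPase of secretory lysosomes (log2 0.26). Clcn7 and Rab27a were lost in 3 and 6 of the 8 fits.

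The remaining genes with large differences belong to several classes. Chst2, a sulfotransferase of glycans, stood at 36.5, 22.3, 16.6 and 22.6 CPM with the Mitf ASO and at 15.3, 8.33, 7.42 and 8.51 CPM with the Tfeb ASO (log2 1.32 ± 0.09, adjusted p = 7.09e-05). Lox, which crosslinks collagen, stood at 22.7, 17.1, 14.3 and 19.2 CPM against 11.2, 3.88, 3.39 and 6.87 CPM (log2 1.61 ± 0.18, adjusted p = 0.00151). Neither gene had overlapping groups. Ccpg1, a receptor for autophagy of the endoplasmic reticulum, stood at 109, 136, 142 and 143 CPM against 65.6, 81.1, 99.5 and 93.9 CPM (log2 0.66 ± 0.05, adjusted p = 0.000236). Its ntc level, 122 ± 15.3 CPM (SD, n = 4), lay near that of the Mitf ASO libraries. Igfbp4, which binds insulin-like growth factors, stood at 24.2, 30.6, 28.9 and 29.1 CPM against 51.7, 60.7, 53.1 and 51.1 CPM (log2 -0.94 ± 0.07, adjusted p = 0.000176), with ntc between them at 40.8 ± 1.8 CPM (SD, n = 4). Kmt2a, a histone methyltransferase, stood at 8.76, 8.43, 17.3 and 18.5 CPM against 14.3, 25, 47.8 and 40.1 CPM. Its groups overlapped, since both were higher in grp 3 and 4, but each pair was lower (log2 -1.21 ± 0.13, adjusted p = 0.00123). Rreb1, a zinc finger factor, was lower by -0.46 ± 0.05 (log2, SE; adjusted p = 0.00138). These 6 were robust, with the exceptions for Rreb1 given above.

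Of the other genes with the largest differences, Gpr162 (1), Ptchd1 (1.21), Pdcd1 (0.92) and Nr4a1 (0.91) were higher, on the log2 scale, and were lost in 2 to 8 of the 8 fits. Ccr1 (-1.41), Fam43a (-1.1), Rasgrp4 (-1.06), Bsn (-0.82), Gm21985 (-0.82), Kmt2d (-0.81), Myo18b (-0.8), Fam193b (-0.8), Rrbp1 (-0.76) and Dlc1 (-0.73) were lower and were also lost in 2 to 8 of the 8 fits. For Ccr1, a chemokine receptor, the groups did not overlap, at 6.78 to 10.8 CPM with the Mitf ASO against 16.4 to 31.8 CPM with the Tfeb ASO. Gm2026 and Zc3h11a are uncertain. Gm2026, a predicted gene, had 1.35 to 3.48 CPM with the Mitf ASO and was at 0 in 3 of the 4 Tfeb ASO libraries. Zc3h11a stands under 2 identifiers, of which 1 was called higher and the other lower.

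The direct comparison does not by itself say which ASO moved a gene, so the ntc levels were set beside it without a test. Of the 235 higher genes, the ntc mean lay below the means of both ASO groups for 134, between them for 94 and above both for 7. Of the 309 lower genes, it lay between them for 225, above both for 70 and below both for 14. Ctsb, Cd63, Lamp1, Cst7, Chst2 and Lox were thus lowest with ntc, intermediate with the Tfeb ASO and highest with the Mitf ASO. The summed level of the disease-associated list ranged from 26500 to 30000 CPM with ntc, 29600 to 35000 CPM with the Tfeb ASO and 38500 to 42500 CPM with the Mitf ASO. Abundant cathepsins shared with the hydrolase list, above all Ctsd and Ctsb, weigh most in this sum. Scarcer members such as Itgax, Cst7 and Clec7a add little to it. The summed level of the homeostatic list ranged from 124000 to 131000 CPM with ntc, 127000 to 132000 CPM with the Tfeb ASO and 120000 to 127000 CPM with the Mitf ASO. With PBS it ranged from 121000 to 130000 CPM, which overlaps the range of the Mitf ASO.

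Library measures that differed between the groups are given beside these results. Total counts were 16111626 to 23999147 with the Mitf ASO and 14372015 to 24769606 with the Tfeb ASO. Mitochondrially encoded transcripts took 1.875, 1.831, 2.362 and 3.175% of counts with the Mitf ASO (grp 1 to 4) and 1.852, 1.584, 1.661 and 1.983% with the Tfeb ASO, higher with the Mitf ASO in each pair. Of 13 such transcripts, a set chosen after the values were seen, 4 were called higher and the median was 0.331. Over all genes tested 2.29% were called higher and the median was -0.002. With the mitochondrially encoded transcripts left out of the fit 566 genes were called, 540 of them among the 544. The higher genes had a median transcript length of 2593 bases and the lower genes one of 4381 bases, against 2722 bases over all genes. The part of these measures in the results was not tested.

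Few markers of other cell types were among the genes deposited, from which low-count genes had already been removed. Most defining markers of monocytes, lymphocytes, astrocytes, oligodendrocytes, vessels, neurons and choroid plexus were not measured here, among them S100a8, Cd3e, Gfap, Cldn5, Snap25 and Folr1. Of the measured members, 0 of 3 monocyte and neutrophil, 0 of 3 lymphocyte, 0 of 3 astrocyte, 0 of 5 oligodendrocyte, 0 of 1 neuron and 0 of 3 choroid plexus genes were called by edgeR or by DESeq2. An unadjusted p under 0.05 was found for 2 lymphocyte, 2 oligodendrocyte and 1 choroid plexus gene and for 0 of the monocyte, astrocyte and neuron genes. Of all genes tested edgeR called 5.29%, so 0 calls in lists this small say little about these cell types. The summed level of the oligodendrocyte genes was 1310 to 1710 CPM with the Mitf ASO and 1490 to 1980 CPM with the Tfeb ASO. Tgfbi, of 5 border macrophage genes, was lower by -0.28, and Pecam1, of 6 vessel genes, by -0.35. The summed border macrophage level was 1010 to 1160 CPM with the Mitf ASO and 968 to 1210 CPM with the Tfeb ASO. The microglial markers Csf1r, at 12500 to 17800 CPM, and Tmem119, at 4070 to 5470 CPM, were abundant in all 8 libraries. In the dissociation list 5 of 34 genes were called higher, Ccl3, Ccl4, Atf3, Nr4a1 and Il1b, and 3 lower, Klf2, Jun and Btg2. The shares over all genes tested were 2.29% higher and 3.01% lower. Without 1 library, 2 to 5 members of the dissociation list were called. The summed level of that list was 5290 to 6990 CPM with the Mitf ASO and 5570 to 7310 CPM with the Tfeb ASO. Its part in the values of Ccl3 and Ccl4 was not tested.

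The same genes were then read in 2 comparisons from other mice of the study. SgshKO mice lack the heparan sulfate degrading enzyme Sgsh and model a lysosomal storage disease. At 8 months, 7 SgshKO microglia libraries were compared with 4 wild-type ones, in which 21.8% of genes were called higher and 20.1% lower. Of the 235 genes higher with the Mitf ASO 218 were measured there: 185 were called higher in SgshKO microglia (84.9%, against 20.6% of the genes tested in both) and 2 lower, with a median log2 fold change of 0.95. Of the 309 lower genes 299 were measured, 204 were called lower (68.2%, against 24%) and 7 higher, with a median of -0.44. In SgshKO microglia Cst7 was higher by 5.59, Itgax by 4, Lox by 8.73, Cd63 by 2.63 and Ctsb by 1.9, and Gpr165 was lower by -6.46, all on the log2 scale. These shares describe the genes and are no test.

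The other comparison used SgshKO mice treated with a combination of the Mitf and Tfe3 ASOs (8 libraries) or with ntc (8 libraries), 14 days after injection. With the combination Mitf was lower by -2.26 and Tfe3 by -1.08 on the log2 scale. Of all genes tested 4.84% were called higher and 4.5% lower. Of the 235 genes higher with the Mitf ASO in wild-type mice 233 were measured, and 64 were called lower with the combination (27.5%, against 4.56% of the genes tested in both) and 11 higher, with a median log2 fold change of -0.11. Of the 309 lower genes 301 were measured, 68 were called higher (22.6%, against 5.08%) and 4 lower, with a median of 0.19. Itgax was lower with the combination by -0.64 (adjusted p = 4.62e-08), Clec7a by -0.55 (adjusted p = 0.000219), Cst7 by -0.38 (adjusted p = 0.000102) and Cd63 by -0.27 (adjusted p = 0.0105), and Igfbp4 was higher by 0.52 (adjusted p = 0.000683). Ctsb (0.09), Lamp1 (0.06), Ctsd (0.07) and Chst2 (-0.22) did not pass. The 2 experiments differ in genotype, in the ASOs given and in the reference group, and no test joins them.

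**Figure D5:**
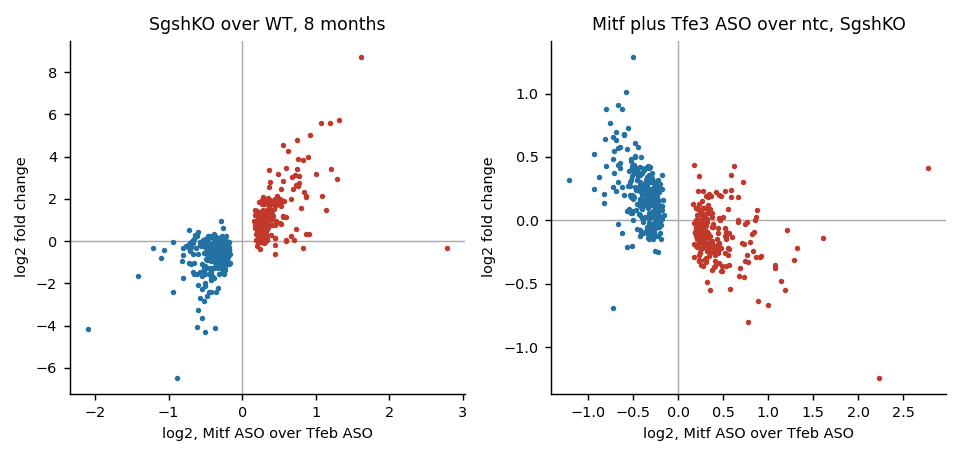
Log2 fold change of Mitf ASO over Tfeb ASO in wild-type mice (x) against the log2 fold change of the same called genes in 8-month SgshKO over wild-type microglia (left, y) and with the Mitf plus Tfe3 ASOs over ntc in SgshKO mice (right, y); Mitf and Tfeb are left out. Genes higher with the Mitf ASO (red) have a median of 0.95 on the left and of -0.11 on the right, and lower genes (blue) of -0.44 and 0.19.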

How the data were processed

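The authors deposited raw counts per gene for 20 wild-type ASO libraries (10277 genes, already without low-count genes), and beside them a linear signal, normalised and batch-corrected by steps not given in the sources used here. Raw counts of the SgshKO ASO libraries and of the age series, also as deposited, served the 2 side comparisons. The submitters' processing notes name mm10, STAR 2.5.3a, kallisto 0.44.0, HOMER 4.11, DESeq2 1.36.0 and R 4.2.3 without roles. The strand-marking libraries were sequenced single-end on 1 of 2 instruments, and the labels do not say which library on which.

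The 8 libraries were fitted in edgeR 4.0.16 (R 4.3.3) with treatment and grp as a block: TMM scaling, filterByExpr at a minimum count of 10, quasi-likelihood F test, two-sided, Benjamini-Hochberg adjustment over all 10276 genes kept, threshold 0.05. SE is the absolute log2 fold change divided by the square root of F. CPM uses TMM factors of all 20 wild-type ASO libraries. After removal of group means, Mitf and Tfeb ASO libraries of the same grp correlated across genes at 0.564, 0.398, 0.433 and 0.571. Those of different grp correlated at -0.489 to 0.256. Removing means of 4 libraries by itself lowers the different-grp values where same-grp values are positive. For each library the same-grp value was the highest, so the numbers were taken to pair the samples. Replicates of a group differed by more than counting noise (chi-square per degree of freedom of 15.06 to 60.61). 1 PBS library has different grp numbers in its title and its column and does not enter the comparison. The SgshKO ASO model held grp, and the 8-month model genotype alone. The fit was tested on simulated data without differences between grp, so that test does not bear on the block.

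The named genes are every measured gene of the factor list, the 15 higher and 15 lower called genes with the largest change whose 4 pairs agree in sign, up to 4 called genes of lowest p in each list (the one of lowest p where none was called), and the 5 of lowest p in each direction. Others were named after their values were seen, and a few genes that the rule names are not reported here. Members and lists were chosen with earlier results of these data known. Gene positions and lengths are from GENCODE vM21 (GRCm38), which held 10271 of the 10276 identifiers. Alternatives used DESeq2 1.42.0, limma 3.58.1 on log2(signal + 1), other scaling, filters, samples and blocks.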

Additional observations from a re-analysis of the deposited data

Results flagged for a closer look

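Among 108 named genes, 16 of 216 groups of 4 libraries held 1 library whose gap to its nearest neighbour as a share of the group's range exceeded Dixon's critical value, and chance flags about 1 group in 20. In the Tfeb ASO group the library of grp 1 stood apart, in CPM, for Chst2 (15.3, others 7.42 to 8.51), Cd63 (243, others 166 to 173), Gpr162 (14.3, others 6.15 to 7.43), Slco2b1 (2640, others 3060 to 3110), Zc3h11a (14.6, others 0.294 to 1.34), Aldoa (439, others 361 to 374), Etv5 (474, others 374 to 385) and Ccl9 (238, others 153 to 163). In the Mitf ASO group the library of grp 1 stood apart for Psat1 (158, others 89.7 to 96.3), Ccl9 (191, others 135 to 140) and Csf3r (528, others 408 to 417). The remaining 5 were Lamp1 in the Tfeb ASO library of grp 2 (1360, others all 1500), Gm2026 in that of grp 3 (0.707, others at 0), Lamtor4 in that of grp 4 (32.1, others 41 to 42), and Slc2a5 (1030, others 811 to 846) and Lamtor5 (25.1, others 22.8 to 23.1) in the Mitf ASO library of grp 2. Chst2, Cd63, Psat1 and Lamp1 kept their calls without each of these libraries.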

How the results depend on the processing

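The pairing by grp set the number of calls. The 544 calls became 6 with no replicate block (3 of the 74 named called genes), 89 (53 higher, 36 lower) on the deposited batch-corrected signal with the block, and 309 (170 higher, 139 lower) on that signal without it, an alternative chosen after seeing the data. Leaving out each library in turn gave 81 to 531. The count stayed within 1.5-fold with DESeq2 (638: 247 higher, 391 lower), other scaling factors (592), no filter (576), a mean of at least 50 counts (620), all 20 libraries in 1 model (363) or without mitochondrially encoded transcripts (566, also chosen after seeing the data; 1 homeostatic gene was then higher beside 12 lower). The 20-library fit kept 310 of the 544 calls and the sign of all 544, the batch-corrected signal 84 calls and the sign of 540, and Mitf and Tfeb were called in every fit run. DESeq2 called 1301 and a replicate block 1011 genes in the SgshKO combination comparison, against 988, and at 8 months 5636 and 3993, against 5416. The labels do not pair the 8-month replicate numbers across genotypes, and SgshKO replicates 5 to 7 have no wild-type library of their number. That blocked fit also tested 14608 genes, against 12946. Depth limits genes of a few CPM, and 4 pairs limit the small differences that make up most calls.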
